A study of Mus musculus with 11 samples.

Results

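The genes described here are 9 genes known from B-lymphocyte development, Ebf1, Il7r, Rag1, Dntt, Igll1, Cd79a, Cd79b, Blnk and Mzb1, measured in lines of myeloid progenitors. They were chosen by symbol from 37583 Ensembl gene IDs in the count tables, with levels in these clones and differences between genotypes from an earlier analysis known. Their levels by clone and by genotype are therefore a description, and the count of them that the fit over all genes called is given beside its background and supports nothing. All 9 were found and all 9 were among the 11900 genes kept by the filter on low counts. The data are RNA-seq gene counts of 11 clones of mouse granulocyte-monocyte progenitors (GMP), the precursors of neutrophils and monocytes. The 6 wild-type (WT) clones are WT-1A, WT-1B and WT-1C with WT-2D, WT-2E and WT-2F, and the 5 Taz knockout (KO) clones are KO-3H and KO-3I with KO-4J, KO-4K and KO-4L. Values listed by clone below keep this order. Taz encodes tafazzin, which remodels the mitochondrial phospholipid cardiolipin. Clones of both genotypes were made from C57BL/6 fetal liver at embryonic day 15.5 and carried ER-Hoxb8, an estrogen-dependent form of the homeobox factor Hoxb8 that was delivered by retrovirus and holds progenitors in an immature, dividing state. Both genotypes grew with stem cell factor (about 50 ng/ml) and 0.5 uM beta-estradiol, and none was differentiated. Each sample is thus 1 immortalised line grown from 1 cell. The sources used here do not say whether clones that share a title number share a parent culture. If they do, clones of 1 number are not independent. The standard errors and p values below treat all 11 as independent, so they may then be too small. The spread between clones may also be partly technical.

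B-cell development starts from lymphoid-primed progenitors that also keep myeloid potential. In them the receptor kinase Flt3 and the interleukin 7 receptor support growth, and the transcription factors E2A (from Tcf3), Ebf1 and then Pax5 establish the B lineage. Rag1 and Rag2 cut immunoglobulin genes for recombination, Dntt adds untemplated bases at the joints, and the first heavy chain is tested in a pre-B receptor made with the surrogate light chain parts Igll1 and Vpreb1 and the signalling pair Cd79a and Cd79b, which signal through Blnk. Transcription of Dntt and of Rag genes before commitment is known from multipotent and early lymphoid progenitors, and Mzb1, Cd79b, Blnk and Dntt are also known from plasmacytoid dendritic cells, so these genes do not by themselves mark a B cell.

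Libraries held 19778119 to 27431544 gene counts. Levels are given in CPM, the usual count unit relative to library size, here with sizes scaled by TMM factors, and intervals in the plots cover counting error only. Taz stood at 37.0 to 43.8 CPM in WT clones and at 2.21 to 4.09 CPM in KO clones, so each library matched its label. The cells transcribed primary granule genes of GMPs, with Mpo (myeloperoxidase) at a mean of 9990 CPM in WT and 9390 CPM in KO clones. These genes were not equally steady between clones. Elane, another of them, ranged from 23.3 to 825 CPM in WT and from 2.26 to 147 CPM in KO clones. WT-2D stood apart by its late neutrophil genes: the 12 markers of that stage summed to 1680 CPM there, against 54.9 to 247 CPM in the other WT clones and 48.7 to 223 CPM in KO clones. For the 9 genes fold changes are given with and without that clone. In bulk RNA, fewer cells that make a transcript and less of it per cell cannot be told apart.

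**Figure D1:**
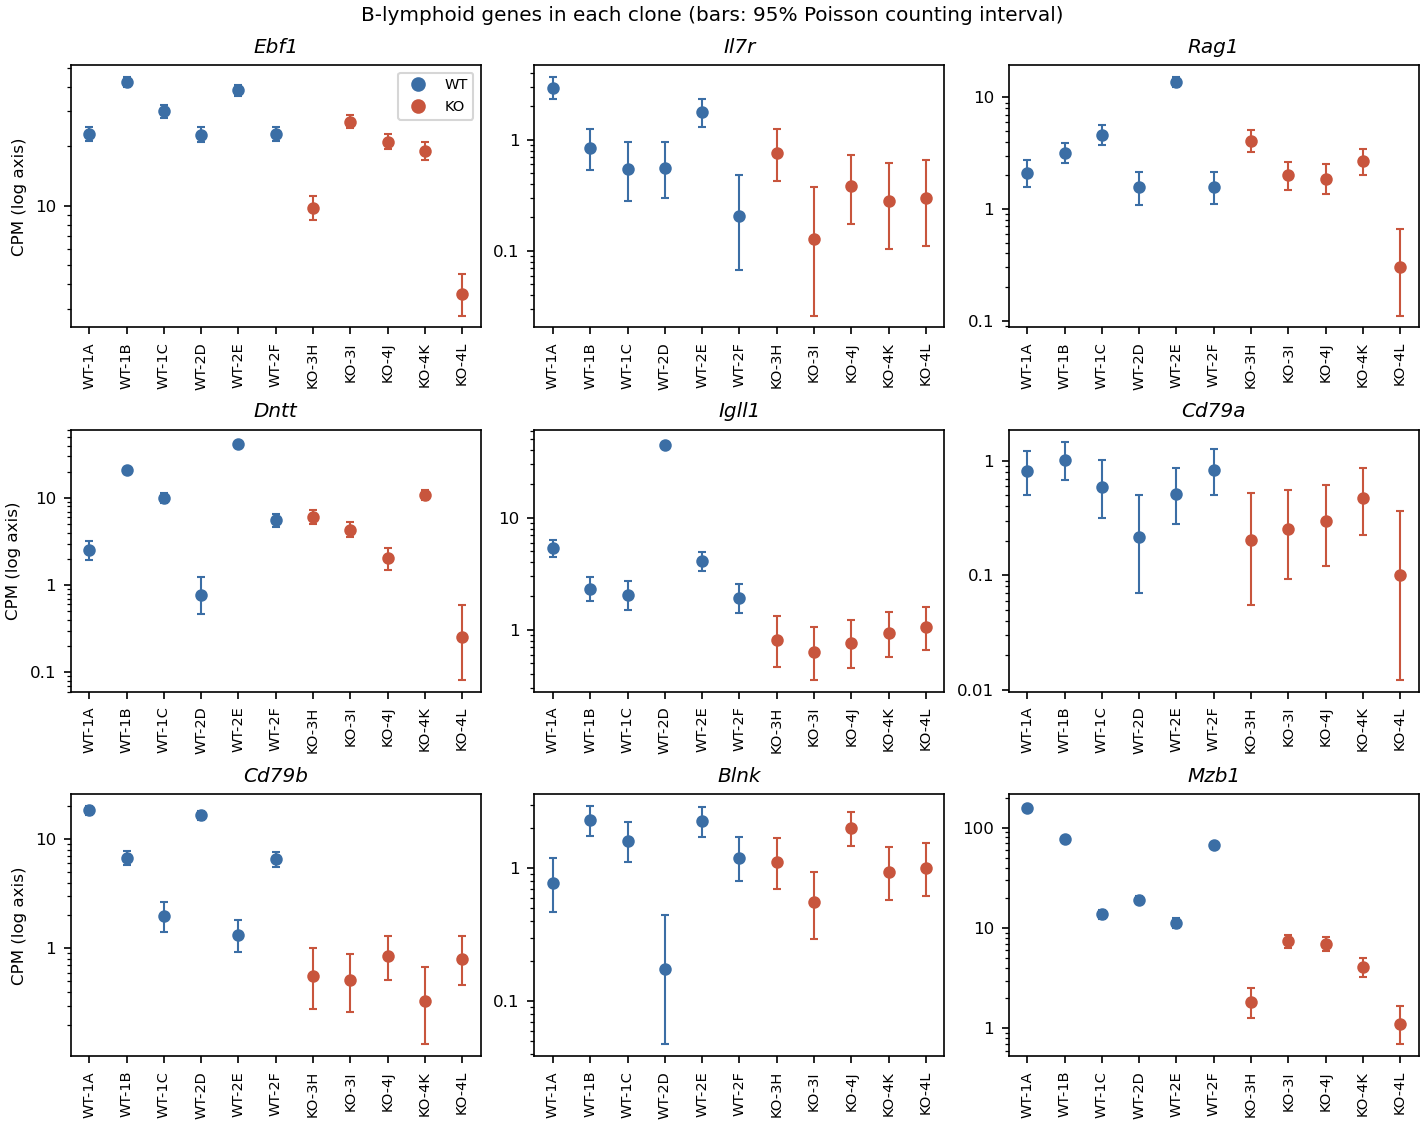
Level of each of the 9 genes in each clone, in CPM on a log axis, WT in blue and KO in red, with 95% Poisson counting intervals. All 5 KO clones lie below all 6 WT clones for Igll1, Cd79b and Mzb1, while the genotypes overlap for the other 6 genes.

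Ebf1, the transcription factor that specifies the B lineage, was transcribed in every clone. It stood at 23.0, 42.2, 30.2, 22.9, 38.4 and 23.1 CPM in WT clones (1A to 2F), and at 9.75, 26.6, 21.1, 18.9 and 3.56 CPM in KO clones (3H to 4L). Among WT clones the highest was at 1.84 times the lowest, whereas KO clones spread over 7.47-fold. KO-4L and KO-3H were lowest, 4 of 5 KO clones lay under the lowest WT clone, and KO-3I lay within the WT range. The mean was 30.0 ± 8.55 CPM (SD, n = 6) in WT and 16.0 ± 9.24 CPM (SD, n = 5) in KO, a log2 fold change of -0.90 ± 0.42 (SE). It was -0.97 without WT-2D and -0.65 without KO-4L. Pax5, which acts after Ebf1 to fix the B-cell fate, had no read in any of the 11 libraries, which allows up to 0.152 CPM in the shallowest (3 counts per library).

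Il7r, the specific chain of the interleukin 7 receptor, was near the limit of detection, with 3 to 76 reads per library. Its levels were 2.92, 0.836, 0.546, 0.562, 1.77 and 0.207 CPM in WT clones 1A to 2F and 0.762, 0.127, 0.382, 0.282 and 0.301 CPM in KO clones 3H to 4L. WT-1A and WT-2E were highest, and the genotypes overlapped. The means were 1.14 ± 1.02 CPM (SD, n = 6) in WT and 0.371 ± 0.237 CPM (SD, n = 5) in KO. This gave a log2 fold change of -1.62 ± 0.67 (SE), -1.76 without WT-2D and -1.09 without WT-1A.

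Among the recombination genes, Dntt, which encodes terminal deoxynucleotidyl transferase, varied most. It stood at 2.50, 20.8, 9.96, 0.778, 41.9 and 5.56 CPM in WT clones 1A to 2F and at 6.10, 4.33, 2.04, 10.8 and 0.251 CPM in KO clones 3H to 4L. WT-2E was highest and KO-4L lowest. The range was 53.8-fold among WT and 43.1-fold among KO clones, and 4 of 5 KO clones lay inside the WT range. The means were 13.6 ± 15.6 CPM (SD, n = 6) and 4.71 ± 4.08 CPM (SD, n = 5). Its log2 fold change of -1.53 ± 1.00 (SE) became -1.78 without WT-2D and -0.75 without WT-2E.

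Rag1, the catalytic part of the recombinase, was lower and had a similar order of clones. Its levels were 2.11, 3.20, 4.64, 1.56, 13.8 and 1.58 CPM in WT clones 1A to 2F and 4.06, 2.00, 1.87, 2.68 and 0.301 CPM in KO clones 3H to 4L. WT-2E was again highest and KO-4L lowest. The means were 4.47 ± 4.70 CPM (SD, n = 6) and 2.18 ± 1.37 CPM (SD, n = 5), a log2 fold change of -1.04 ± 0.71 (SE). It was -1.21 without WT-2D and -0.26 without WT-2E. Rag2, its partner in the recombinase and its neighbour at 5753 bp on chromosome 2, was far more abundant. Rag2 ranged from 29.1 to 56.0 CPM in WT and from 16.8 to 47.0 CPM in KO clones, and per kilobase of exon it stood at a mean of 12.5 against 0.677 for Rag1 in WT and at 8.85 against 0.33 in KO (CPM per kb). The difference between genotypes in Rag2 did not pass the test (-0.50 ± 0.28 in log2, SE; adjusted p = 0.359, edgeR), and passed it (adjusted p = 0.0495, edgeR) in 1 of the alternatives, with counts summed per title number. The annotation gives Rag1 80 exon bases in common with B230118H07Rik (19 to 272 reads), and how reads there were assigned is not stated.

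Of the pre-B receptor genes, Igll1 (lambda 5, part of the surrogate light chain) was low in all KO clones. It stood at 5.34, 2.33, 2.05, 45.0, 4.09 and 1.91 CPM in WT clones 1A to 2F and at 0.813, 0.637, 0.765, 0.941 and 1.05 CPM in KO clones 3H to 4L. The groups did not overlap, KO clones differed among themselves by 1.66-fold, and WT-2D alone was far above the other WT clones. Its log2 fold change was -3.58 ± 0.97 (SE) with all clones and -1.90 without WT-2D, and the KO median was 25.3% of the WT median against 8.32% for the means. Vpreb1, the other part of the surrogate light chain and the next gene at 4418 bp on chromosome 16, stayed near background at 0.564 ± 0.142 CPM (SD, n = 6) in WT and 0.421 ± 0.147 CPM (SD, n = 5) in KO (-0.41 ± 0.27 in log2, SE; adjusted p = 0.434, edgeR). In WT-2D Vpreb1 was at 0.518 CPM, inside the range of the other WT clones.

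Cd79b, the beta chain of the B-cell receptor's signalling pair, had the lowest fold change of the 9. Its levels were 18.3, 6.69, 1.96, 16.5, 1.33 and 6.51 CPM in WT clones 1A to 2F and 0.559, 0.509, 0.85, 0.329 and 0.803 CPM in KO clones 3H to 4L. WT-1A and WT-2D were highest, and WT-2E, the lowest WT clone, was still above each KO clone. The means were 8.55 ± 7.24 CPM (SD, n = 6) and 0.61 ± 0.216 CPM (SD, n = 5), so that the KO mean was 7.13% of the WT mean. The log2 fold change was -3.80 ± 0.73 (SE) and -3.50 without WT-2D. Cd79a, the alpha chain, was barely detected, with 2 to 28 reads per library. Its 5 KO values ran from 0.1 to 0.471 CPM, with a median of 0.255 CPM, and its 6 WT values from 0.216 to 1.02 CPM, with a median of 0.699 CPM. WT-2D, at 0.216 CPM, was the WT clone that fell among the KO clones. For Cd79a the log2 fold change was -1.30 ± 0.43 (SE) and -1.48 without WT-2D.

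Blnk, the adaptor that links the pre-B receptor to downstream kinases, was low and did not separate the genotypes. It ranged from 0.173 CPM in WT-2D to 2.29 CPM in WT-1B, with a WT median of 1.40 CPM, and from 0.552 CPM in KO-3I to 2.00 CPM in KO-4J, with a KO median of 1.00 CPM. Each KO clone lay within the WT range. The log2 fold change was -0.30 ± 0.54 (SE), the smallest in size of the 9, and -0.53 without WT-2D.

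Mzb1 is an endoplasmic reticulum chaperone that assists immunoglobulin assembly in marginal zone B cells and plasma cells. Its mean was the highest of the 9 in WT clones. By clone, however, Mzb1 lay below Ebf1 in WT-1C, WT-2D and WT-2E. Mzb1 stood at 159, 77.0, 13.7, 19.1, 11.2 and 67.8 CPM in WT clones 1A to 2F. In KO clones 3H to 4L it stood at 1.83, 7.43, 7.01, 4.05 and 1.10 CPM. The groups did not overlap, although WT clones themselves spread over 14.2-fold and the lowest of them was WT-2E. The means were 58.0 ± 57.2 CPM (SD, n = 6) and 4.28 ± 2.90 CPM (SD, n = 5), with the KO mean at 7.39% of the WT mean. On the log2 scale the fold change was -3.75 ± 0.85 (SE), -3.93 without WT-2D and -3.13 without WT-1A. In the GRCm38 annotation 695 of the 1215 exon bases of Mzb1 also belong to a gene model, SPATA24, whose ID is not in the count tables, so reads counted for Mzb1 may include reads of that model.

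**Figure D2:**
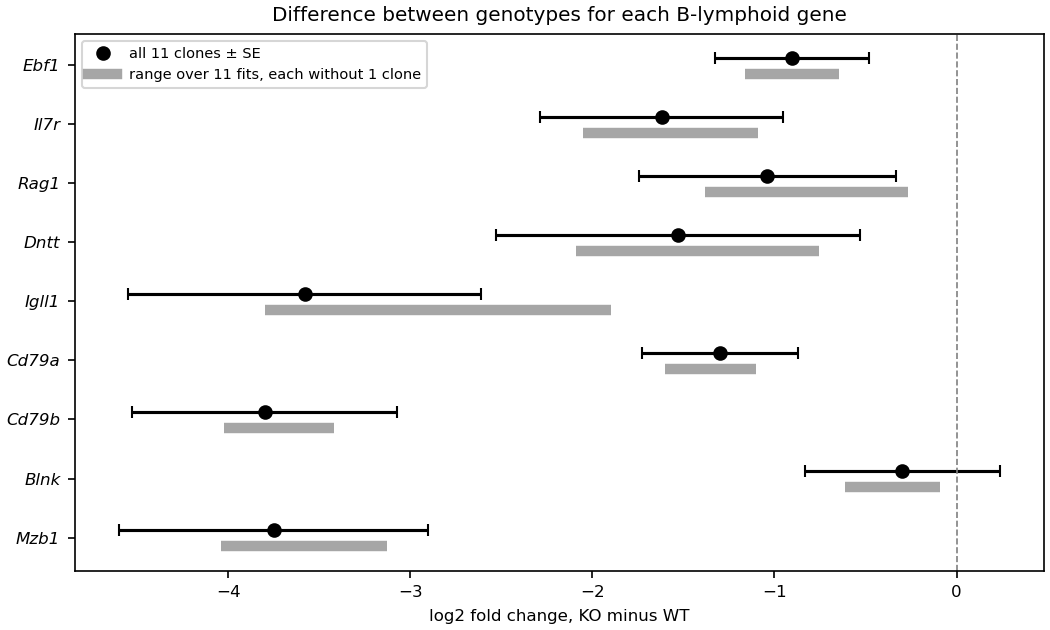
Log2 fold change (KO minus WT) of each of the 9 genes with its standard error, and in grey the range over 11 fits that each leave out 1 clone. All 9 values lie below 0, from -3.80 for Cd79b to -0.30 for Blnk, and the longest grey bar is that of Igll1, which ends at -1.90.

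In the GRCm38 annotation the 9 genes lie at chr11:44617317-45008091 (Ebf1), chr15:9505788-9530176 (Il7r), chr2:101638282-101649501 (Rag1), chr19:41029275-41059525 (Dntt), chr16:16860671-16863985 (Igll1), chr7:24897381-24902197 (Cd79a), chr11:106311341-106314762 (Cd79b), chr19:40928927-40994535 (Blnk) and chr18:35647267-35649367 (Mzb1). Dntt and Blnk are neighbours at 34740 bp, and Opalin, on the other side of Dntt, had no reads. The neighbours of Cd79b, Gh and Scn4a, had 0 to 2 reads in any library, whereas those of Cd79a, Rps19 and Arhgef1, had 3879 to 6224. Prob1, 984 bp from Mzb1, had 45 to 265 reads.

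Set against the whole transcriptome, all 9 genes had negative fold changes, as did 51.6% of the 11900 genes tested. The median of the 9 was -1.53, that of Dntt, against -0.01 over all genes tested. Since this contrast was known when the genes were chosen, nothing is read from these shares. In edgeR's fit over all genes at an adjusted p under 0.05, 2 of the 9, Mzb1 and Cd79b, were called lower in KO, where 2.29% of all tested genes were called lower, 2.76% higher and 5.05% in either direction. Groups were apart for 3 of 9, Mzb1, Cd79b and Igll1, each with every KO clone below every WT clone, a pattern seen in 3.02% of tested genes, with the opposite one in 2.97%. The same 3 genes had log2 fold changes below -3, as did 0.193% of tested genes, and all but Blnk and Ebf1 were below -1, as were 2.21%. The number called depended on the clones. It was 4 without WT-2D, when Cd79a and Igll1 were added, 1 without WT-1A, WT-1B, WT-2F, KO-3H, KO-4J, KO-4K or KO-4L, and 0 without KO-3I. Cd79b was the gene still called in each of these fits with 1 call. With counts summed per title number 1 was called, Cd79b, and with means of title numbers, with limma-voom or without title number 1, 3 or 4 none was. Cd79a and Il7r passed the filter on low counts through WT clones, since 5 of 6 WT and 1 of 5 KO clones lay above its minimum for each.

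Per kilobase of exon, the order of mean levels in WT clones was Mzb1 (47.7 CPM per kb), Cd79b (5.98), Dntt (5.92), Igll1 (4.68), Ebf1 (3.07), Rag1 (0.677), Cd79a (0.455), Il7r (0.244) and Blnk (0.23). In KO clones the order was Mzb1 (3.53), Dntt (2.05), Ebf1 (1.64), Cd79b (0.426), Igll1 (0.389), Rag1 (0.33), Blnk (0.187), Cd79a (0.182) and Il7r (0.0796). The ranges of neighbours in these orders overlapped across clones, except that Ebf1 (2.35 to 4.32 CPM per kb) lay above Rag1 (0.235 to 2.08) in WT clones. For scale, Mpo stood at a mean of 2920 CPM per kb in WT and 2740 in KO clones.

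Clone by clone, no clone was high or low for all 9 genes. WT-1A was the highest WT clone for Mzb1, Cd79b and Il7r, WT-1B for Cd79a, Blnk and Ebf1, WT-2E for Dntt and Rag1, and WT-2D for Igll1. WT-2D was also the lowest WT clone for 5 genes, Cd79a, Dntt, Blnk, Ebf1 and Rag1. KO-4L was the lowest KO clone for Mzb1, Cd79a, Dntt, Ebf1 and Rag1 and the lowest of all 11 clones for these 5, but the highest KO clone for Igll1. The spread within a genotype was wide for the 9: the SD of log2 CPM among WT clones was 2.04 for Dntt, 1.70 for Igll1, 1.56 for Mzb1 and 1.52 for Cd79b, against a median of 0.16 over all tested genes. Dntt was more variable than 98.3% of tested genes in WT and 98.4% in KO clones. Ebf1 was more variable than 77.5% in WT and 95.8% in KO clones. Igll1 was more variable than 97.3% of genes in WT and 70.6% in KO clones. Part of this spread is counting error for the genes with few reads, Cd79a, Il7r and Blnk. The same holds in KO clones for Cd79b (7 to 20 reads) and Igll1 (15 to 21 reads).

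The numbers in the titles (1 and 2 in WT, 3 and 4 in KO) did not separate the clones for any of the 9 genes, as the ranges of numbers 1 and 2, and of 3 and 4, overlapped for each. The difference in mean log2 CPM, number 2 minus number 1, was -1.17 for Mzb1 and 1.25 for Igll1, the latter with WT-2D in number 2. Number 4 minus number 3 was -1.40 for Dntt and -1.20 for Rag1, with KO-4L in number 4. Each number holds 1 genotype, so no genotype difference can be given within a number. Comparing the means of the 2 numbers of each genotype called 307 genes, none of them among the 9.

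**Figure D3:**
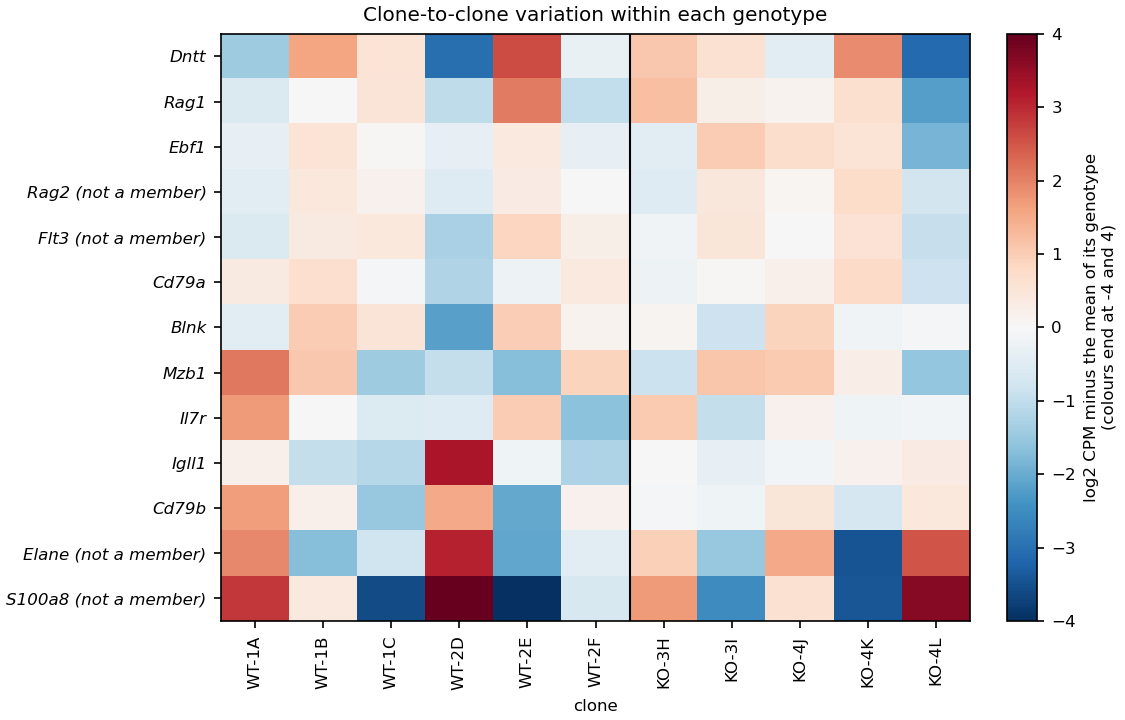
Log2 CPM of the 9 genes and of Rag2, Flt3, Elane and S100a8 in each clone, minus the mean of the clone's genotype, on a colour scale that ends at -4 and 4. Dntt and Rag1 run together and opposite to Elane and S100a8, while Cd79b runs with S100a8.

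After the mean of each genotype was removed, the 9 genes did not vary as 1 group. Over the 11 clones the highest Pearson correlation between any pair of them was that of Dntt and Rag1 (r = 0.87, Spearman rho = 0.84, r = 0.77 without the 2 clones farthest from the median of Dntt). Dntt and Ebf1 had r = 0.68 (rho = 0.50, and r = 0.36 without those 2 clones, so this relation rests on them). Cd79b went the other way, with r = -0.74 against Dntt (rho = -0.77, and r = -0.74 without its 2 farthest clones) and r = 0.51 with Igll1 (rho = 0.53, and r = 0.56 without those 2 clones). Between Igll1 and Blnk r was -0.79 (rho = -0.60), and -0.45 without the 2 clones farthest for Igll1, WT-2D and WT-2F. Cd79a and Cd79b, whose proteins pair, had r = -0.19 (rho = -0.05), and 0.43 without the 2 clones farthest for Cd79a, so that the sign turned. These correlations describe 36 pairs and carry no p, since the genes were picked with their values known and the points share library depth and composition.

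Some myeloid and progenitor genes, chosen after their values were seen, ran along the same axis. Flt3 went with Dntt (r = 0.92, rho = 0.85, r = 0.80 without WT-2D and KO-4L). It ranged from 65.1 CPM in WT-2D and 73.6 CPM in KO-4L to 288 CPM in WT-2E. Elane (neutrophil elastase) went against Dntt (r = -0.88, rho = -0.93, r = -0.80 without those 2 clones), from 2.26 CPM in KO-4K to 825 CPM in WT-2D. Cd79b went with the late neutrophil gene S100a8 (r = 0.89, rho = 0.89, r = 0.82 without WT-1C and WT-2E). As an example across genotypes, KO-4L had 30.1 CPM of S100a8 and 0.803 CPM of Cd79b, while WT-2E had 0.0736 CPM of S100a8 and 1.33 CPM of Cd79b. Rag2 went with Ebf1 (r = 0.84, rho = 0.86, r = 0.82 without KO-3I and KO-4L). Mzb1 had r = 0.09 with Flt3, -0.07 with Elane and 0.08 with S100a8 over all clones (rho = -0.05, -0.02 and 0.15), but 0.58, -0.49 and -0.37 without WT-1A and WT-2E, so these values rest on those 2 clones. The part of maturation stage in the values of the 9 genes was not tested.

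**Figure D4:**
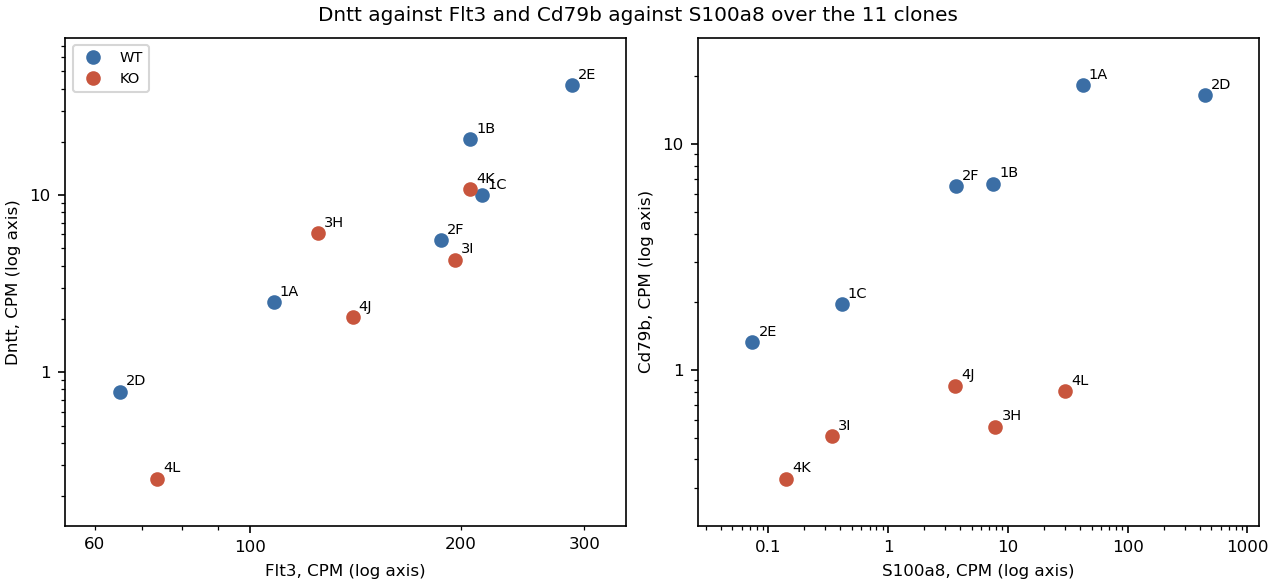
Dntt against Flt3 (left) and Cd79b against S100a8 (right) in the 11 clones, in CPM on log axes, WT in blue and KO in red. On the left both genotypes lie along 1 band from 2D and 4L up to 2E, and on the right KO clones lie between 0.329 and 0.85 CPM of Cd79b, below all WT clones.

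Among 10768 other named genes of at least 1 CPM, those whose centred levels followed each gene most closely over the 11 clones were mostly not lymphoid genes. For Ebf1 they were Sigirr (r = 0.98), Ccdc69 (0.94) and 4930503L19Rik (0.92), and for Dntt B2m (0.97), Map4 (0.96) and Nfya (0.96). For Rag1 they were Mettl4 (r = 0.94), Tram1 (0.92) and Gem (0.89), and for Il7r Ints12 (0.89), Smim20 (0.89) and Slc38a5 (0.88). Igll1 had Eef1d (r = 0.96), Cdc42ep3 (0.95) and Kat2a (0.95), Cd79b had Eif3l (0.97), Rpe (0.97) and Cnnm4 (0.96), Blnk had, among others, Akap12 (0.94) and Wfdc17 (0.94), and Mzb1 had Iqcg (0.96), Bloc1s6 (0.92) and Eid2 (0.91). With so many genes and 11 clones, high values of r are to be found for any gene, and they are given as a description. Cd79a, with a mean under 0.5 CPM, was not compared in this way.

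The promoters of Dntt and Rag1, which varied together, and of Igll1, which did not vary with them, are shown for comparison. They are the 250 bases before the transcription start in RefSeq (GRCm38.p6), 5′ to 3′ on the strand of the gene, at chr19:41029025-41029274 (plus strand), chr2:101649533-101649782 (minus strand) and chr16:16863986-16864235 (minus strand). Capitals mark matches, on either strand, to the Ebf1 core motif CCCNNGGG or the E2A motif CAGGTG.
Dntt: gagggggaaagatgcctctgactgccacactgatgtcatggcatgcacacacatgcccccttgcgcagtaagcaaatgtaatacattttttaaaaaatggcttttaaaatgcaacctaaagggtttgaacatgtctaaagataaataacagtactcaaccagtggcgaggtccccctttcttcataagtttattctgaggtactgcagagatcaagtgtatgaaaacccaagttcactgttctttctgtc
Rag1: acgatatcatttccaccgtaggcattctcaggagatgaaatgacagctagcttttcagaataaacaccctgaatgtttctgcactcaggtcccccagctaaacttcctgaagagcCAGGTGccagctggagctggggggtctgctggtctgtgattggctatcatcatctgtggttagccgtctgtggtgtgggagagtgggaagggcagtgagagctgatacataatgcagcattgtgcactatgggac
Igll1: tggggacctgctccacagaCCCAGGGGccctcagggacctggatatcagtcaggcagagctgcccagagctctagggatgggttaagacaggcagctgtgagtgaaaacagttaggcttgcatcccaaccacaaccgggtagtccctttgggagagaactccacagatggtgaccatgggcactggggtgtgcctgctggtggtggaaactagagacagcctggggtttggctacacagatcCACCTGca
The Dntt window held neither motif. The Rag1 window held 1 E2A motif, and the Igll1 window held 1 E2A motif ending 3 bases before the start and 1 Ebf1 core. Of 32851 promoter windows of this length, 17.2% held CAGGTG and 11.8% held CCCNNGGG. The full Ebf1 palindrome, which is the core with T before it and A after it, was in 0.779% of windows. It was in none of the windows searched for Cd79a, Igll1, Dntt, Il7r, Blnk, Ebf1 and Rag1. The octamer motif ATTTGCAT, bound by the factors Pou2f1 and Pou2f2, was in 1.6% of all windows and, among these genes, in that of Blnk. No window of Cd79b or Mzb1 was searched, so nothing is said of these motifs there. A match of letters is not a binding site.

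**Figure D5:**
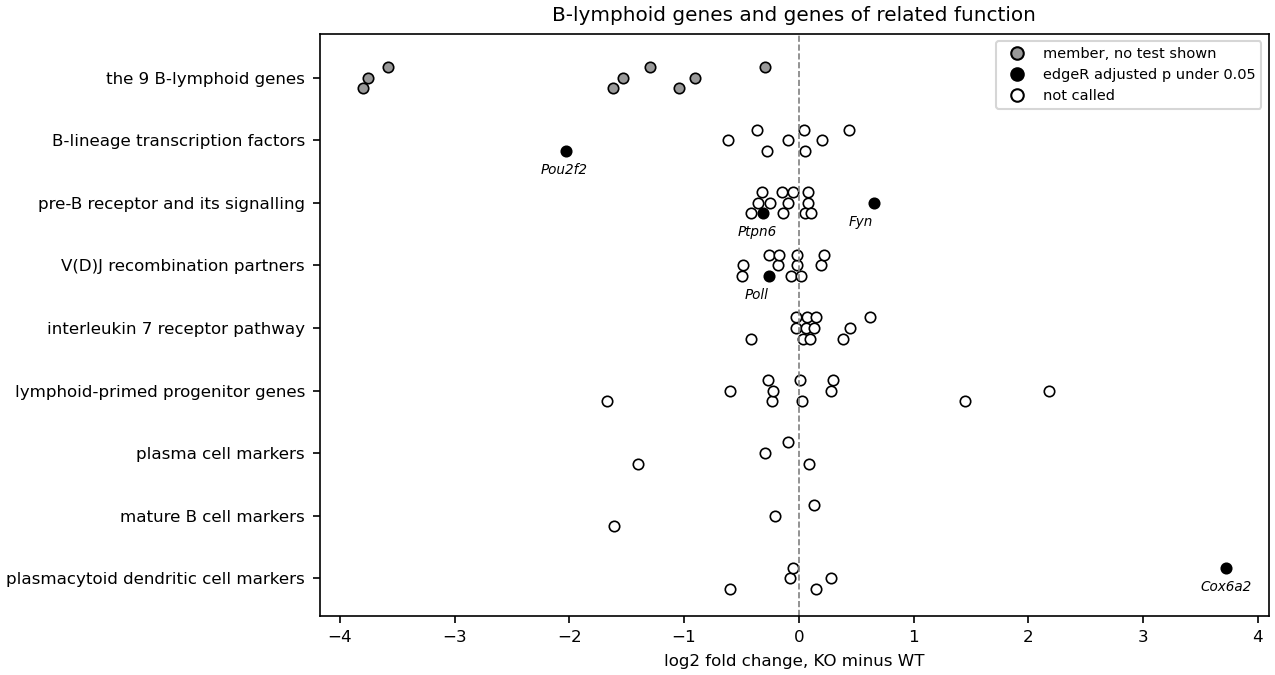
Log2 fold change (KO minus WT) of the 9 genes (grey, no test shown) and of tested genes of related function (black where called by edgeR at an adjusted p under 0.05, open where not). Called genes outside the 9 are Pou2f2, Ptpn6 and Poll below 0 and Fyn and Cox6a2 above 0.

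Other genes of the B-cell program were tested in the same fit. The lists here and below were chosen with earlier results of these data known, so their counts of calls are a description. Of all genes tested, 5.05% were called, 2.29% lower and 2.76% higher. Every KO clone lay below every WT clone in 3.02% of all genes tested, and above in 2.97%. Among 16 transcription factors of the lineage, 9 were tested and 1 was called, Pou2f2 (Oct-2), which fell. It stood at 7.76, 9.64, 5.37, 8.99, 4.56 and 4.35 CPM in WT clones 1A to 2F and at 3.76, 0.509, 1.78, 1.36 and 0.853 CPM in KO clones 3H to 4L. No KO clone overlapped a WT clone, and KO-3H was highest of the KO clones. Pou2f2 thus changed by -2.03 ± 0.47 (SE) in log2, with an adjusted p of 0.0357 in edgeR. The call was lost without WT-1A, WT-1B, WT-1C, KO-3I, KO-4J, KO-4K or KO-4L (highest adjusted p = 0.0818, edgeR). It was also lost with counts summed per title number (adjusted p = 0.0557, edgeR) and with means of title numbers (adjusted p = 0.0783, edgeR). Of the 9 transcription factors tested, 5 had negative fold changes. The median of these factors was -0.09 against -0.01 over all genes. E2A (Tcf3) was at 225 ± 8.58 CPM (SD, n = 6) in WT and 233 ± 13.6 CPM (SD, n = 5) in KO clones, and Ikzf1 (Ikaros) at 497 ± 80.6 and 512 ± 45.9 CPM (both chosen after their values were seen). Pax5 and Irf4 had no reads in any clone, and 5 of the 16 had fewer than 10 reads in every clone.

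Of 20 genes of the pre-B receptor and its signalling, 14 were tested, 1 rose and 1 fell (median log2 fold change -0.12). The Src-family kinase Fyn rose from 58.4 ± 7.31 CPM (SD, n = 6) to 92.0 ± 8.67 CPM (SD, n = 5), by 0.65 ± 0.10 in log2 (SE; adjusted p = 0.00454, edgeR). It ranged from 44.0 to 63.2 CPM in WT and from 85.0 to 106 CPM in KO clones, without overlap, and kept its call in all 11 fits without 1 clone and with sums or means of title numbers, but not without title number 4 (adjusted p = 0.123, edgeR). The phosphatase Ptpn6 (SHP-1), which damps receptor signalling, fell from 233 ± 20.1 to 188 ± 16.9 CPM (SD), by 0.31 ± 0.07 (SE) on the log2 scale (edgeR adjusted p = 0.0355). Its groups overlapped, and the call was lost without any clone but WT-2D, WT-2E and KO-4J (highest adjusted p = 0.0961, edgeR), and with sums or means of title numbers. The number of genes called in this list was 1 without WT-1A, WT-1B, WT-2F, KO-3H, KO-3I, KO-4K or KO-4L and 3 without WT-2D. The kinases Btk, Syk and Lyn, shared by B cells and myeloid cells, were abundant in both genotypes, at means of 101 to 233 CPM, and were not called. Vpreb2 and Blk had no reads.

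Of 12 recombination partners, all were tested and 1 was called, the DNA polymerase Poll, used in end joining, which fell from 25.4 ± 1.37 CPM (SD, n = 6) to 21.3 ± 1.60 CPM (SD, n = 5). The change in log2 was -0.26 ± 0.06 (SE; adjusted p = 0.0393, edgeR), no KO clone overlapped a WT clone, and the call held in 1 of 11 fits without 1 clone, the one without WT-1C (highest adjusted p = 0.0883, edgeR). Poll was not called with sums or means of title numbers. The list's median was -0.12. In the interleukin 7 receptor pathway edgeR called none of 12 tested genes, with 3 higher at an unadjusted p under 0.05, while DESeq2 called 2 higher (Pim1 and Bcl2) and limma-voom 0. The median was 0.09. The most abundant, the kinase Jak1, was at a mean of 244 CPM in WT and 255 CPM in KO clones. Without WT-2E edgeR called 1, Bcl2, higher. None of 11 tested lymphoid-primed progenitor genes was called by edgeR, with 2 higher and 2 lower at an unadjusted p under 0.05, 1 called by DESeq2 (Mef2c, lower) and 0 by limma-voom (median 0.01). Flt3, the most abundant, was at 178 ± 79.9 CPM (SD, n = 6) in WT and 148 ± 54.4 CPM (SD, n = 5) in KO clones. EdgeR called 1 gene of this list without WT-2D (Tcf4, lower) and 1 without KO-3H (Mef2c, lower).

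Markers of other cell types that could carry these transcripts were measured beside them. Of 15 mature B-cell markers found, 11 had fewer than 10 reads in every clone and Ms4a1 (CD20), Cd40 and Fcmr had none. Their summed level was 166 to 275 CPM in WT and 207 to 272 CPM in KO clones. Most of it was Cd37, which leukocytes in general express (169 and 185 CPM). Cd72, another marker of this list, had means of 53.1 CPM in WT and 46.0 CPM in KO clones. It was picked once its level had been seen. The third tested gene was the immunoglobulin gene Ighm, with means of 4.22 CPM in WT and 1.38 CPM in KO clones. Log2 fold changes (± SE) were 0.13 ± 0.06 for Cd37, -0.20 ± 0.48 for Cd72 and -1.61 ± 1.01 for Ighm. EdgeR, DESeq2 and limma-voom called none of the 3 tested, and edgeR gave none at an unadjusted p under 0.05. Of 10 plasma cell markers, 5 had fewer than 10 reads in every clone and Irf4 had none. The sum was 330 to 668 CPM in WT and 421 to 591 CPM in KO clones, with Sdc1 (syndecan-1) the most abundant at 347 ± 157 and 283 ± 86.6 CPM (SD). None of the 4 tested was called by edgeR, DESeq2 or limma-voom, with 1 lower at an unadjusted p under 0.05 in edgeR.

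Of 13 plasmacytoid dendritic cell markers, 7 had fewer than 10 reads in every clone, and Siglech had 3 reads in all. Klk1 and Cd209d had none. The sum was 222 to 414 CPM in WT and 323 to 440 CPM in KO clones, most of it Ptprcap, Tcf4 and Runx2. Tcf4 and Runx2 were also in the list of lymphoid-primed progenitor genes. Bst2, a further marker here, had means of 46.3 CPM in WT and 51.5 CPM in KO clones. It too was picked once its level had been seen. Of 6 tested, 1 was called by edgeR: the cytochrome oxidase subunit Cox6a2 was at 2.13 ± 1.02 CPM (SD, n = 6) in WT and rose to 28.2 ± 4.79 CPM (SD, n = 5) in KO clones, by 3.72 ± 0.33 in log2 (SE; adjusted p = 0.000763, edgeR), opposite in direction to the 9 genes. Without WT-2D 2 were called, with Tcf4 lower. With counts summed per title number Cox6a2 missed the threshold (adjusted p = 0.0531, edgeR) and Tcf4 was called, lower. T-cell markers summed to 10.9 to 25.6 CPM in WT and 4.71 to 21.3 CPM in KO clones, of which Thy1 made up the most, Cd3e and Cd8a had no reads and 11 of 14 had fewer than 10 reads in every clone. NK-cell markers summed to 0.154 to 5.67 and 0.765 to 8.58 CPM, mostly Gzmb, with none of Ncr1, Tbx21 and Gzma. Among T-cell (2 tested), NK-cell (1), monocyte and macrophage (5), erythroid and megakaryocyte (8) and GMP markers (14), edgeR, DESeq2 and limma-voom called none, and none had an unadjusted p under 0.05 in edgeR. Monocyte and macrophage markers summed to 544 to 1180 CPM in WT and 971 to 1820 CPM in KO clones, with Ccr2 the most abundant and C1qa and C1qc at 0. Erythroid and megakaryocyte markers summed to 77.7 to 258 and 136 to 248 CPM, with Itga2b the most abundant and Hba-a2 at 0. GMP markers summed to 14500 to 24000 CPM in WT and 13700 to 21700 CPM in KO clones, with Mpo the most abundant and Ctsg the most abundant per length. Of 8 tested late neutrophil markers edgeR called 0, with 1 lower at an unadjusted p under 0.05, DESeq2 1 (Mmp8, lower) and limma-voom 0, while their median log2 fold change was -2.30 with WT-2D among the WT clones. Without WT-2D that median was -0.36. S100a9, highest by mean over all clones through WT-2D, had a mean of 86.9 CPM and a median of 7.28 CPM in WT clones, and 5.88 and 0.807 CPM in KO clones. The part of these markers in the values of the 9 genes was not tested.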

How the data were processed

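RNA-seq was measured in 11 clones (6 WT, 5 KO), grouped by the labels. For each clone the authors deposited a table of raw counts by Ensembl ID. The submitters' processing notes name STAR, HTSeq, edgeR and mm9 and give no version, and no source used here names the annotation release. The deposited tables are marked as counted without strand, so antisense reads cannot be told apart. Reads in no gene (5.41 to 6.94%) and ambiguous reads (2.7 to 2.93%) did not enter library sizes or tests. Symbols were matched by ID for 32860 of 37583 genes (87.4%) in a GRCm38 annotation, also used for exon lengths, overlaps and neighbours.

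KO and WT were compared with edgeR 4.0.16 (robust quasi-likelihood test, TMM, filterByExpr, Benjamini-Hochberg) in R 4.3.3. Calls are at an adjusted p under 0.05. Each SE is the size of the log2 fold change divided by the root of F. Log2 CPM used a prior count of 2. Alternatives used limma 3.58.1 and DESeq2 1.42.0, and plots matplotlib 3.10.9. The tests were tried on simulated counts.

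The 9 genes, their lists and the named-gene rule were chosen with earlier results of these data known. The rule took the 9 genes, Taz, up to 4 called genes per list of smallest adjusted p or else its most abundant, the 3 genes most like each of the 9, and overlapping or neighbouring genes. Not every gene under it is reported here. Genes said to be chosen after their values were seen fall outside it, as do the list genes named as absent, as background or as called under another setting.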

Additional observations from a re-analysis of the deposited data

Results flagged for a closer look

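Several values stood apart from the other clones of their genotype in Dixon's test at the 95% level. It was made on CPM without a log, for 54 sets of values (27 genes in 2 genotypes). The test marks about 1 set in 20 by chance where values are normally distributed, a rate that may not hold for these CPM. It marked 7 sets, of which 2 belonged to the 9 B-lymphoid genes (18 sets). The 9 were chosen with their levels in these clones known, so their marks are a description. Igll1 in WT-2D was at 45.0 CPM, against 1.91 to 5.34 CPM in the other WT clones. Rag1 in WT-2E was at 13.8 CPM, against 1.56 to 4.64 CPM.

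WT-2D was also set apart by S100a9, a late neutrophil protein, at 485 CPM against 0.091 to 21.8 CPM in the other WT clones. S100a9 was included as the most abundant gene of its list, a rank it has through WT-2D. Its mark therefore adds no support. Sdc1 (syndecan-1) in WT-2D was at 37.3 CPM against 344 to 463 CPM in the other WT clones. WT-2E was set apart by Gzmb (granzyme B) at 5.37 CPM against 0 to 0.829 CPM. Fyn was lowest among WT clones in WT-1A, at 44.0 CPM against 58.1 to 63.2 CPM. Ptpn6 was highest among KO clones in KO-4J, at 217 CPM against 174 to 185 CPM.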

How the results depend on the processing

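No paired analysis was possible because the title numbers and letters of WT and KO clones share no value. The fold changes of all 9 genes were negative in each of the 24 or 25 alternatives that gave a value. All moved by less than the SD between clones of a genotype, except Igll1, at -1.94 without title number 2 and -1.90 without WT-2D. Leaving out 1 clone gave -3.80 to -1.90 for Igll1, -4.04 to -3.13 for Mzb1, -4.02 to -3.42 for Cd79b, -2.09 to -0.75 for Dntt, -2.05 to -1.09 for Il7r, -1.60 to -1.10 for Cd79a, -1.38 to -0.26 for Rag1, -1.16 to -0.65 for Ebf1 and -0.61 to -0.09 for Blnk.

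Over all genes, 601 were called in the reported fit, 329 with no filter, 1261 with DESeq2, 197 with counts summed per title number, 307 with means of title numbers, and 45, 296, 92 and 32 without title number 1, 2, 3 or 4. Leaving out 1 clone gave 240 to 739. Of the 9 genes, 1 was called with no filter, the stricter filter or summed counts, 0 with limma-voom, means of title numbers or without number 1, 3 or 4, and 0 to 4 without 1 clone. With the stricter filter (at least 5 CPM in 5 clones) 3 of the 9 were tested. Of B-lineage factors, 0 were called with either filter change, summed counts, means of title numbers or without number 1, 2 or 4, and 0 to 1 without 1 clone. Of pre-B receptor genes, 1 was called with summed counts, means of title numbers or without number 1 or 3, 0 without number 4, and 1 to 3 without 1 clone. Of recombination partners, 2 were called with DESeq2, 1 with summed counts (Rag2 in place of Poll), 0 with no filter, means of title numbers or without any of the 4 numbers, and 0 to 1 without 1 clone. Interleukin 7 pathway genes gave 2 with DESeq2, 1 with summed counts and 0 to 1 without 1 clone. Lymphoid-primed genes gave 1 with DESeq2, 1 with summed counts and 0 to 1 without 1 clone. Late neutrophil markers gave 1 with DESeq2, and plasmacytoid markers 1 to 2 without 1 clone and 1 with summed counts (Tcf4 in place of Cox6a2). Fits on fewer clones, sums or genes have fewer values to test, and the cause of the other changes was not tested.

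With a prior count of 0.5, 22 of the 24 most similar genes were the same, and CPM on plain library sizes differed by at most 1.26%. Cd79a, Il7r and Blnk had under 100 reads in every library, which limits what their levels can show. In KO clones this limit also applies to Cd79b, with 7 to 20 reads, and to Igll1, with 15 to 21.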

Other observations

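Other lymphoid genes, picked after their values were seen, also differed widely between clones of 1 genotype. Bcl11a, a transcription factor needed for lymphoid development, was at 0.473 CPM in WT-1B and at 13.1 to 41.5 CPM in the other WT clones, and at 6.63 to 27.1 CPM in KO clones. Ighm, the immunoglobulin mu heavy chain gene, ranged from 0.461 CPM in WT-1A to 13.1 CPM in WT-1C and from 0 CPM in KO-3I to 3.16 CPM in KO-4L. Bach2, a repressor at work in B-cell precursors, was at 2.65 CPM in WT-2E, the clone highest in Dntt and Rag1, and at 0.0768 to 0.5 CPM in the other WT clones. Prkcb, a protein kinase C of B-cell receptor signalling, was at 1.40 CPM in WT-2E and 0.847 CPM in KO-4K, against 10.6 to 19.9 CPM in the other WT and 4.46 to 22.3 CPM in the other KO clones.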
